A study of Homo sapiens with 4 samples.

Results

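The genes described here encode the mTOR kinase complexes and the lysosomal machinery that reports nutrients to them. The set is a list of 36 named pathway genes, matched by symbol, and all 36 were found among the 20665 genes of the deposited table. The 4 RNA-seq libraries came from NALM6, a human leukemia cell line of B cell precursors. For 2 of them DMSO was added for 45 min (vehicle), and the other 2 followed 24 h in glucose-free medium and 45 min with 15 mM AICAR. Inside cells AICAR becomes an AMP analog that switches on the energy-sensing kinase AMPK. A period without glucose is stated for the AICAR libraries only, so the effect of AICAR and that of glucose removal cannot be told apart if the vehicle cells were kept in glucose.

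The mTOR kinase works in a pair of complexes. Complex 1, built around the scaffold protein Raptor (RPTOR), drives protein synthesis and restrains autophagy when amino acids, growth factors and energy are plentiful. Complex 2, built around Rictor (RICTOR), phosphorylates AKT. Amino acids recruit complex 1 to the lysosome through the Rag GTPases, which are tethered there by the Ragulator complex and controlled by GATOR1, GATOR2, the sestrins and folliculin. Growth factors and energy act through the TSC complex, which switches off the GTPase RHEB. AMPK is known to lower the activity of complex 1 by phosphorylating TSC2 and Raptor, an effect on proteins that RNA counts do not measure.

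Libraries held 32318376 to 36769116 counts, and each member had 46 to 4263 counts per library, with DEPTOR lowest and every other member at 152 or more. Of 12 markers of B cell precursors, 11 were in the table, each above 1 FPKM (a level scaled for transcript length and library depth), with a summed level of 3141 and 3124 FPKM with vehicle and 3244 and 3360 FPKM with AICAR. IGLL1 made up the largest portion of that sum, and of the 11 markers 5 were higher with AICAR and 3, RAG1, RAG2 and EBF1, lower. Their part in the results below was not tested. The summed level of the 2 T cell markers in the table was 0.10 to 0.21 FPKM, and that of 6 myeloid markers 1.82 to 3.10 FPKM. Bulk RNA gives shares of a library, so fewer cells of a type and less RNA per cell cannot be told apart. Nothing in the labels says that the 2 libraries of a group came from separate cultures, and the p-values then measure only the spread between these libraries.

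Transcripts of the pathway moved by small amounts and in both directions. Of 36 members, 11 were higher with AICAR and 5 lower (called: an adjusted p under 0.05 by the Benjamini-Hochberg method over 13626 genes, in the quasi-likelihood test of edgeR). That is 44.4% of members, against 39.1% of all genes tested. Called higher were 30.6% of members against 19.4% of all genes, and called lower 13.9% against 19.7%. The median log2 fold change of the members was -0.03, and that of all genes tested -0.0022. Of the 16 called members, 12 differed by less than the 1.29-fold of NPRL3, and FNIP1 and RICTOR differed by at least 0.5 on the log2 scale, 5.56% of members against 10.1% of all genes. The split depended on scaling: with libraries scaled by total counts alone, 4 members were higher and 8 lower, while over all genes the share of lower calls went from 50.4% to 69.3%. In that scaling the median of all genes lay at -0.06. By role, the median log2 fold change was 0.19 for the kinase complexes, 0.10 for the TSC complex, -0.14 for the Rag GTPases, 0.16 for Ragulator, 0.19 for GATOR1, -0.00091 for GATOR2, -0.15 for the sestrins, -0.19 for the folliculin complex and 0.08 for the S6 kinases. Over GATOR1 and GATOR2 together it was 0.10, and the single genes RHEB and SLC38A9 had -0.11 and -0.21. These medians moved with the processing. That of the kinase complexes was 0.02 among genes averaging at least 10 CPM and 0.05 with the trend on GC content removed. With that trend removed, Ragulator and GATOR1 had 0.07 and 0.08, while the TSC complex had 0.16 and the folliculin complex -0.28. Differences between these role groups were not tested.

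The calls that stood under every alternative analysis were those of MTOR, TSC2, RICTOR, MIOS and FNIP1. The other 11 called members lost their call in at least 1 of 17 alternatives. Without vehicle replicate 1 the members counted 7 higher and 6 lower, and without vehicle replicate 2 they counted 9 and 3. The members' 4 values did not overlap between the groups for 28 of 36 genes, or 77.8%, against 69.2% of all genes. AICAR was above vehicle in 15 of the 36 members and below in 13. Over all genes the shares above and below were 34.3% and 34.9%.

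**Figure D1:**
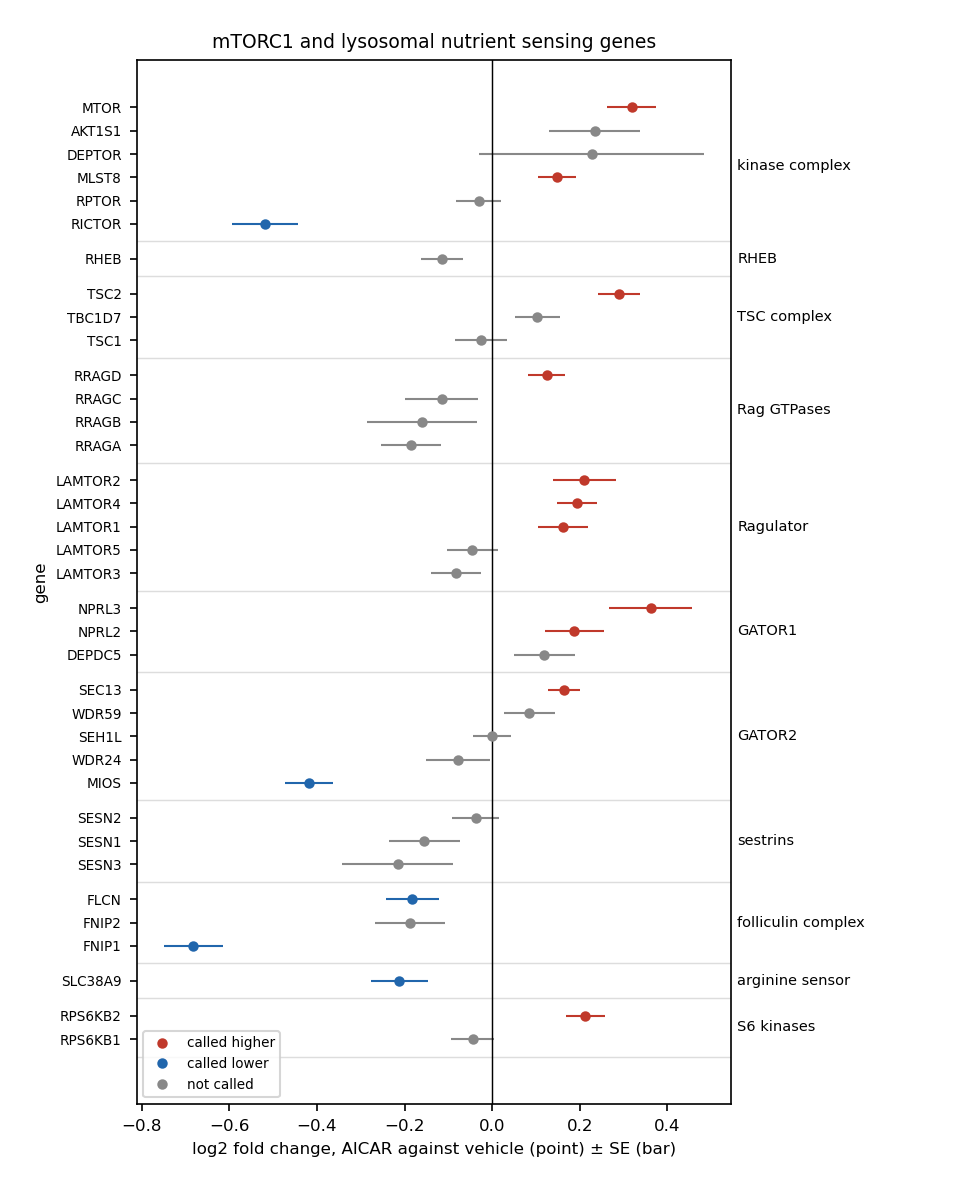
Log2 fold change of each member with AICAR against vehicle (points, with the standard error as bars), arranged by role and coloured by call. MTOR, TSC2 and NPRL3 lie on the right, at 0.32, 0.29 and 0.36, and FNIP1, RICTOR and MIOS lie farthest left, at -0.68, -0.52 and -0.42.

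Levels per transcript length spanned a wide range. In the authors' FPKM values, the mean with vehicle went from 0.75 FPKM for DEPTOR to 121 FPKM for LAMTOR4. Of the role groups, Ragulator had the highest median level, 73.7 FPKM over 5 genes, although LAMTOR3 was at 27.4 and 24.2 FPKM with vehicle. SEC13, of GATOR2, was at 89.3 and 88.4 FPKM with vehicle, above the vehicle means of LAMTOR1, LAMTOR2, LAMTOR3 and LAMTOR5. The sestrins had a median of 5.02 FPKM and the folliculin complex one of 4.77 FPKM, 3 genes each. MTOR itself was at 9.20 and 7.56 FPKM with vehicle and 9.75 and 9.63 FPKM with AICAR. These FPKM values also move with the transcript isoforms to which reads were assigned: TSC2 had 13.2 and 9.12 FPKM in its vehicle libraries with 1452 and 1450 counts. In FPKM the groups overlapped for 4 of the 16 called members, TSC2, RRAGD, LAMTOR1 and NPRL3.

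**Figure D2:**
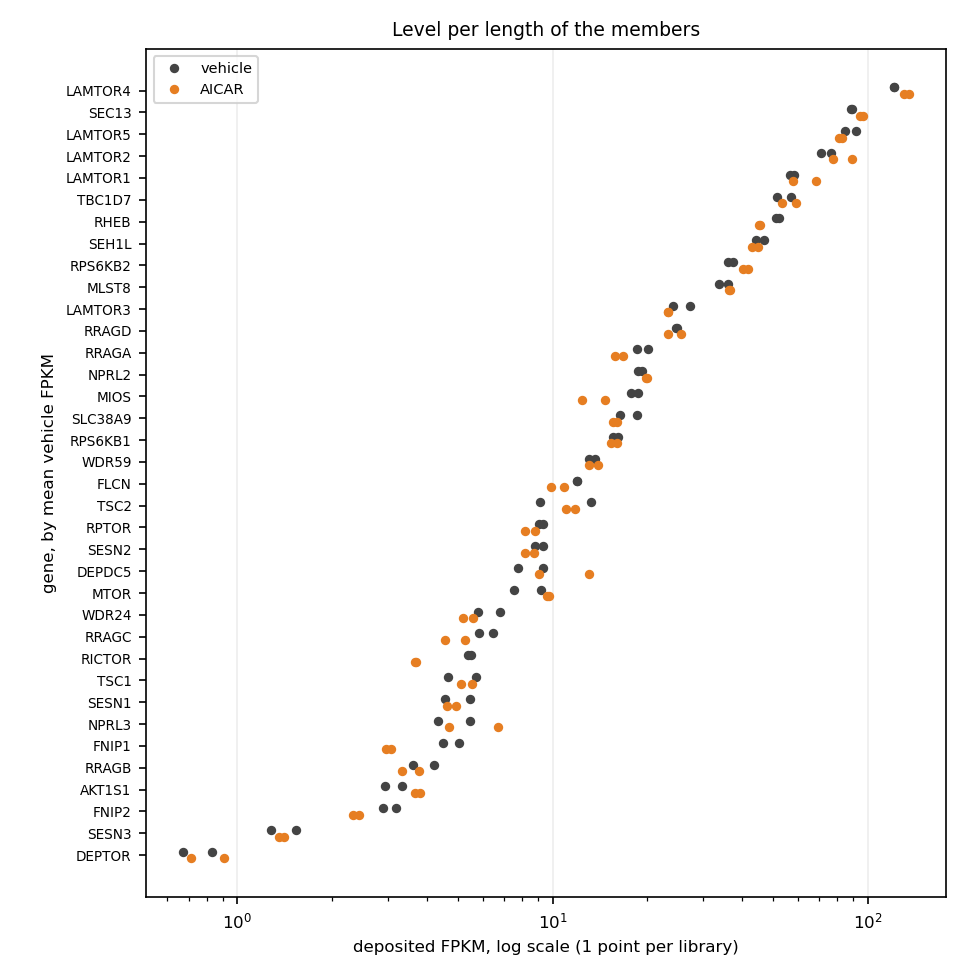
Deposited FPKM of each member in each library on a log axis, with vehicle in grey and AICAR in orange, ordered by the mean with vehicle. DEPTOR lies lowest, at 0.67 to 0.91 FPKM, and LAMTOR4 highest, at 121 to 136 FPKM.

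In the kinase complexes, the catalytic subunit rose and the scaffold of complex 2 fell. MTOR had 69.8 and 61.1 CPM (counts scaled to the library size, here with TMM factors) with vehicle and 82.0 and 81.2 CPM with AICAR. Both AICAR values lay above both vehicle values, and the vehicle libraries differed more from each other than the AICAR libraries did. The log2 fold change of MTOR was 0.32 ± 0.0562 (SE; adjusted p = 0.00100), and without vehicle replicate 2 it was 0.21. RICTOR had 19.0 and 19.98 CPM with vehicle against 12.9 and 14.3 CPM with AICAR, a 1.43-fold fall (log2 fold change -0.52 ± 0.0756, SE; adjusted p = 0.000291). Its groups were well apart, with the higher AICAR value below the lower vehicle value.

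RPTOR, the scaffold of complex 1, was not called. It had 42.5 and 41.1 CPM with vehicle and 42.3 and 39.5 CPM with AICAR (log2 fold change -0.03, adjusted p = 0.687), so the groups overlapped. MLST8, a subunit of both complexes, rose by 0.15 from 51.6 and 51.2 to 56.3 and 57.4 CPM (adjusted p = 0.0188). This call was lost without vehicle replicate 2 (0.13) or AICAR replicate 2 (0.14) and in DESeq2. The inhibitors AKT1S1, known as PRAS40, and DEPTOR had log2 fold changes of 0.23 each and did not pass (adjusted p = 0.0996 and 0.530). DEPTOR had the fewest counts of all members, 46 to 60 per library.

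RHEB, the GTPase that activates complex 1, had 51.0 and 52.8 CPM with vehicle and 46.7 and 49.2 CPM with AICAR. The groups did not overlap, but the log2 fold change of -0.11 did not pass (adjusted p = 0.0783); it was called lower under scaling by totals (-0.17), among genes averaging at least 10 CPM (-0.16) and with the trend on length or GC content removed (-0.17 and -0.13). In the TSC complex, which inhibits RHEB, the subunit with the catalytic domain rose. TSC2 had 41.1 and 39.4 CPM with vehicle and 49.4 and 49.1 CPM with AICAR, a log2 fold change of 0.29 ± 0.0475 (SE; adjusted p = 0.000617). TSC2 shares exon bases with NTHL1 and PKD1 on the other strand, which rose by 0.19 and 0.14. Its partner TSC1 was at 23.6 and 24.8 CPM with vehicle and 24.0 and 23.5 CPM with AICAR, with overlapping groups (-0.03, adjusted p = 0.777). For TBC1D7, the third subunit, the value was 0.10 (adjusted p = 0.141), and it was called higher without AICAR replicate 2 (0.17) and with the GC trend removed (0.20).

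The Rag GTPases act as pairs of RRAGA or RRAGB with RRAGC or RRAGD. RRAGD was called higher, from 52.7 and 52.2 to 57.2 and 57.2 CPM, a log2 fold change of 0.12 (adjusted p = 0.0382). This call was lost without each library in turn (0.11 to 0.13), with a replicate block (adjusted p = 0.0513) and in DESeq2 (adjusted p = 0.201). Its close relative RRAGC had overlapping groups and was not called (-0.12, adjusted p = 0.310). RRAGA, at 28.0 and 31.6 CPM with vehicle and 25.2 and 27.2 CPM with AICAR, had a log2 fold change of -0.19 that just missed the threshold (adjusted p = 0.0542). With the replicate block it was called lower (adjusted p = 0.0223), as it was without vehicle replicate 1 (-0.27) or AICAR replicate 2 (-0.24). RRAGB, the least abundant of the Rag genes at 4.76 to 5.44 CPM, had -0.16 (adjusted p = 0.347).

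Ragulator holds the Rag GTPases on the lysosomal membrane. Of its 5 subunits, LAMTOR1, LAMTOR2 and LAMTOR4 were called higher and none lower, with a median log2 fold change of 0.16, but with total counts alone none was called. Called higher were 19.4% of all genes, and 35.1% of the protein-coding genes with effective lengths under 1000 bases, the range of these 3 subunits. LAMTOR2 had 37.9 and 42.6 CPM with vehicle and 43.3 and 49.7 CPM with AICAR, so that its groups were separated by less than the spread within each. Its log2 fold change of 0.21 ± 0.0719 (SE; adjusted p = 0.0376) was 0.13 without vehicle replicate 1 and 0.11 without AICAR replicate 2, neither of which passed. LAMTOR1, the membrane anchor, had 0.16 (adjusted p = 0.0451), and 0.09 and 0.10 without the same libraries. DESeq2 called neither LAMTOR1 nor LAMTOR2 (adjusted p = 0.118 and 0.0751). LAMTOR4 had 0.19 (adjusted p = 0.00544) and kept its call when any 1 library was left out. LAMTOR3 and LAMTOR5 had -0.08 and -0.05 and did not pass (adjusted p = 0.288 and 0.589).

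LAMTOR1, LAMTOR2, LAMTOR4 and LAMTOR5 were the 4 members with effective lengths under 1000 bases. The median log2 fold change of the 1559 protein-coding genes tested in that range was 0.13. With the trend on length removed, LAMTOR1, LAMTOR2 and LAMTOR4 had 0.09, 0.09 and 0.07 and none passed, while LAMTOR5 was called lower at -0.17.

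GATOR1 switches off RRAGA and RRAGB when amino acids are scarce. All 3 of its subunits had both AICAR values above both vehicle values, as did 34.3% of all genes, and NPRL3 and NPRL2 were called higher, as were 19.4% of all genes. NPRL3 had 10.5 and 9.41 CPM with vehicle and 13.6 and 11.97 CPM with AICAR, a log2 fold change of 0.36 ± 0.0941 (SE; adjusted p = 0.00997). It was the largest rise among the members, yet it was lost without AICAR replicate 1 (0.27) and in DESeq2 (adjusted p = 0.0605). NPRL3 shares 6.85% of its exon bases with MPG on the other strand. MPG had a mean of 2147 counts with vehicle and 2286 with AICAR, and rose by 0.23. Whether reads of MPG entered the counts of NPRL3 was not tested. NPRL2 had 0.19 (adjusted p = 0.0446), which did not pass when vehicle replicate 1 or AICAR replicate 1 was left out (both 0.14), under scaling by totals or in DESeq2. DEPDC5 had 19.5 and 18.4 CPM with vehicle and 21.4 and 19.7 CPM with AICAR (0.12, adjusted p = 0.201).

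GATOR2 counteracts GATOR1, and its subunits went in different directions. MIOS fell from 47.2 and 47.2 CPM with vehicle to 37.05 and 33.7 CPM with AICAR. The vehicle libraries were nearly equal and both AICAR libraries far below them, with a log2 fold change of -0.42 ± 0.0549 (SE; adjusted p = 0.000142). SEC13, which also belongs to the coat of vesicles that leave the endoplasmic reticulum, rose from 112 and 116 to 128 and 128 CPM (0.16 ± 0.0374, SE; adjusted p = 0.00480), which did not pass when scaled by totals (0.10). SEH1L, which like SEC13 is also part of the nuclear pore, had 90.2 and 95.4 CPM with vehicle and 91.0 and 94.4 CPM with AICAR, with the AICAR values inside the range of the vehicle values (-0.00091, adjusted p = 0.990). WDR24 and WDR59 had -0.08 and 0.08 and did not pass (adjusted p = 0.444 and 0.275).

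Among the amino acid sensors, the gene of the lysosomal arginine sensor was lower. SLC38A9 had 22.2 and 23.8 CPM with vehicle and 20.3 and 19.4 CPM with AICAR (log2 fold change -0.21 ± 0.0653, SE; adjusted p = 0.0234). It was not called without vehicle replicate 2 (-0.17) or AICAR replicate 2 (-0.18), or in DESeq2 (adjusted p = 0.155). Sestrins bind GATOR2, and SESN2 is a leucine sensor that stress responses induce. None of the 3 sestrin genes was called by edgeR, DESeq2 or limma-voom, and none had an unadjusted p under 0.05 in edgeR. SESN2, the most abundant, was at 30.2 and 29.7 CPM with vehicle and 29.8 and 28.6 CPM with AICAR, with overlapping groups (-0.04, adjusted p = 0.630). It was called lower with the GC trend described below removed (-0.16). SESN1 and SESN3 had -0.15 and -0.22, with AICAR values below the vehicle values in each (adjusted p = 0.162 and 0.210).

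The folliculin complex, which acts on RRAGC and RRAGD, held the largest fall among the members. FNIP1, which also binds AMPK, had 20.8 and 20.5 CPM with vehicle and 13.0 and 12.8 CPM with AICAR. The 2 libraries of each group were nearly equal and the groups far apart, with a log2 fold change of -0.68 ± 0.0683 (SE; adjusted p = 1.99e-05). Its counts were not whole numbers (734.87 and 755.43 with vehicle, 414.2 and 427.51 with AICAR). FNIP1 shares 3.54% of its exon bases with a gene on the same strand, CTC-432M15.3, which had a mean of 266 counts with vehicle and 78.2 with AICAR. How reads were divided between these genes was not tested.

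FLCN, the gene of folliculin, fell by 0.18 from 33.8 and 34.8 to 28.6 and 31.8 CPM (adjusted p = 0.0335). This call was lost without vehicle replicate 2 (-0.17) or AICAR replicate 1 (-0.11). It was also lost in DESeq2 (adjusted p = 0.15), with no low-count filter and with the length trend removed. FLCN shares 11.9% of its exon bases with a gene on the same strand, RP11-45M22.4, which had a mean of 34.4 counts with vehicle and 6.26 with AICAR. FNIP2 had 13.4 and 13.9 CPM with vehicle and 11.5 and 12.5 CPM with AICAR, a log2 fold change of -0.19 that did not pass (adjusted p = 0.0850). FLCN, FNIP1 and FNIP2 each had both AICAR values below both vehicle values, which 34.9% of all genes tested did.

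Of the S6 kinases, substrates of complex 1 that promote translation, RPS6KB2 rose from 53.9 and 55.4 to 62.1 and 64.6 CPM (log2 fold change 0.21 ± 0.0442, SE; adjusted p = 0.00275). RPS6KB1 was at 39.3 and 39.9 CPM with vehicle and 39.2 and 37.6 CPM with AICAR (-0.04, adjusted p = 0.523). The call of RPS6KB2 was lost with the GC trend removed (0.07).

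**Figure D3:**
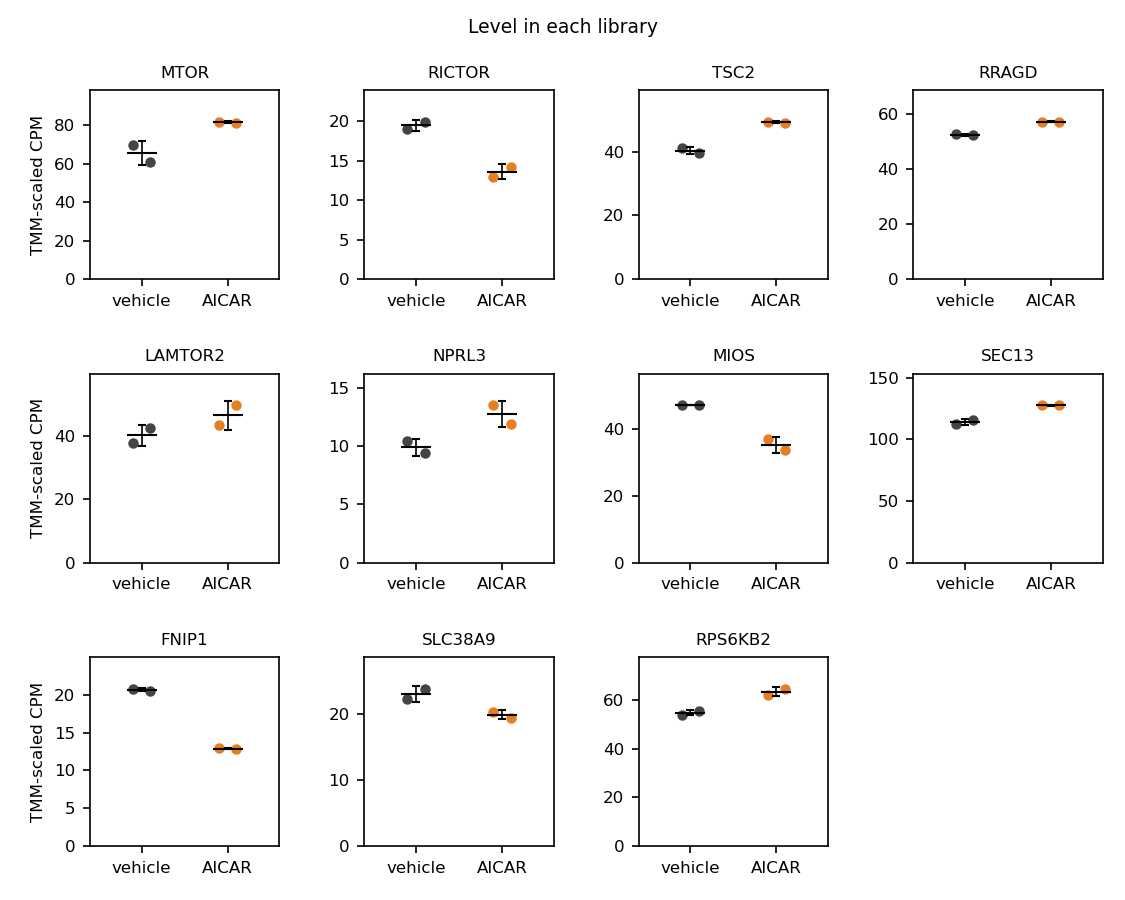
TMM-scaled CPM in each library for the 11 members whose values are given by the naming rule, with axes from 0, points for libraries and bars for the mean ± SD of 2 libraries. FNIP1, RICTOR and MIOS fell in both AICAR libraries, and the groups of LAMTOR2 and SLC38A9 lie close together.

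Base composition went with the fold change across all genes and among the members. Protein-coding genes whose longest coding transcript had under 40% GC had a median log2 fold change of -0.15, and those with at least 60% GC one of 0.16 (1707 and 1709 genes). The 11 members called higher had a median GC content of 57.6% and the 5 called lower one of 42.3%. Over all protein-coding genes the same medians were 55.2% for genes called higher and 42.8% for genes called lower. RICTOR, FNIP1 and MIOS had 36.5%, 38.9% and 42.3% GC, and TSC2 had 60.5%. Some called members went the other way: FLCN was lower at 55.8% GC and RRAGD higher at 42.1%. MTOR, also called higher, had 52.2%.

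With this trend removed, an analysis chosen after seeing the data, 5 members were higher and 9 lower, while 2104 of the 13626 genes were higher and 2407 lower. RICTOR, FNIP1 and MIOS then had log2 fold changes of -0.33, -0.54 and -0.35, and MTOR and TSC2 of 0.25 and 0.16, each still called. FLCN (-0.28) and RRAGD (0.20) were called as well. LAMTOR1, LAMTOR2, LAMTOR4, NPRL2, NPRL3, SEC13, RPS6KB2, MLST8 and SLC38A9 were not. RPTOR, WDR24, SESN2, RRAGA and RHEB were called lower at -0.16, -0.23, -0.16, -0.25 and -0.13, and SEH1L and TBC1D7 higher at 0.15 and 0.20.

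**Figure D4:**
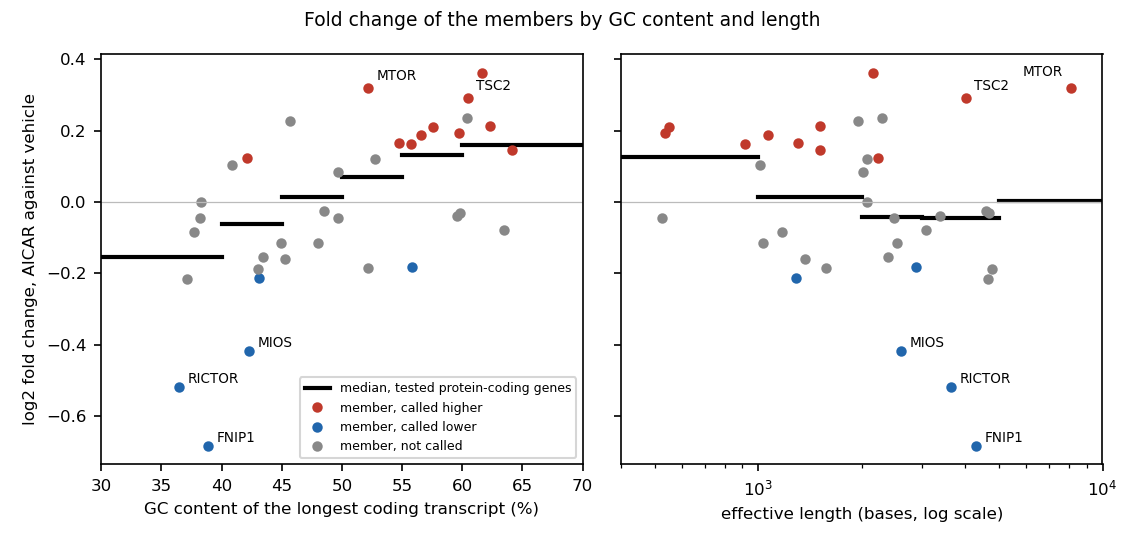
Log2 fold change of each member (points) against the GC content of its longest coding transcript and against its effective length on a log axis, with the median of tested protein-coding genes in each range as black lines. The lines rise with GC content from -0.15 to 0.16, and RICTOR, MIOS and FNIP1 lie well below the lines of their ranges.

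Promoter windows of 300 bases, most of them before the annotated start, were taken from RefSeq (GRCh38.p14) for 30 members. They were searched on both strands for CACGTG, the core that MiT/TFE factors such as TFEB bind in lysosomal genes, for its longer form, the CLEAR element, and for TGATGNAAN, bound by the stress factor ATF4. The core was present in 7 of 30 windows (23.3%), against 10.3% of the 8893 windows of tested genes and 7.43% of all 27305 windows. Members with the core moved in either direction or were not called: FNIP1 fell, TSC2, LAMTOR1, LAMTOR4 and NPRL3 were called higher, and RRAGB and RRAGC did not pass. In these 30 windows, the longer form was found only in RRAGB (0.821% of windows of tested genes). TGATGNAAN was found only in TSC2 (1.62%), where it overlaps the core. MLST8, AKT1S1, DEPTOR, RRAGA, RRAGD and WDR24 had no window, so their promoters were not searched. The windows of the genes with the firmest falls and that of TSC2 are shown, with RRAGB for its 3 copies of the core. They are in lower case, and capitals mark matches to CACGTG and TGATGNAAN only. In RRAGB the longer form surrounds the middle copy of the core, and its outer bases stay in lower case.
FNIP1, chr5:131796968-131797267, minus strand: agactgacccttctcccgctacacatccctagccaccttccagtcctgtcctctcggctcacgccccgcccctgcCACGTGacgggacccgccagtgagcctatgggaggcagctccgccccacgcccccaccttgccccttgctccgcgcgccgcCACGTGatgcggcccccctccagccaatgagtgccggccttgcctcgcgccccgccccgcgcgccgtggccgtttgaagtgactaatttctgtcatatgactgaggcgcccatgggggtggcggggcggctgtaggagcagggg
RICTOR, chr5:39074350-39074649, minus strand: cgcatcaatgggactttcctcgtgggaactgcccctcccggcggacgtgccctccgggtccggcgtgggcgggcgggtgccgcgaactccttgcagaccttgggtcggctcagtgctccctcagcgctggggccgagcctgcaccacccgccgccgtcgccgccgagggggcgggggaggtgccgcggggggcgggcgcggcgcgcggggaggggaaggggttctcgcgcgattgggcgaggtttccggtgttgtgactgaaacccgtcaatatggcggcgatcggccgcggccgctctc
MIOS, chr7:7566634-7566933, plus strand: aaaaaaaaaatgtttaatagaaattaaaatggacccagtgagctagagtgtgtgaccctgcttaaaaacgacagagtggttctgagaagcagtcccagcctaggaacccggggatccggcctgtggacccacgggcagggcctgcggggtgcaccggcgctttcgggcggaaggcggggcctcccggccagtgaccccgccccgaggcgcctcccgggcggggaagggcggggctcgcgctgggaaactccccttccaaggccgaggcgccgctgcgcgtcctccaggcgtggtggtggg
TSC2, chr16:2047735-2048034, plus strand: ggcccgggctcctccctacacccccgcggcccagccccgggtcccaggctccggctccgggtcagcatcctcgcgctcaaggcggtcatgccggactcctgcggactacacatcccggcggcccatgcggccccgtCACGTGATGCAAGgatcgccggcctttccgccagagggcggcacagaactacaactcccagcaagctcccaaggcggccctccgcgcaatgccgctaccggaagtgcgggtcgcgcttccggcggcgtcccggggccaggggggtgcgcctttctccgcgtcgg
RRAGB, chrX:55717499-55717798, plus strand: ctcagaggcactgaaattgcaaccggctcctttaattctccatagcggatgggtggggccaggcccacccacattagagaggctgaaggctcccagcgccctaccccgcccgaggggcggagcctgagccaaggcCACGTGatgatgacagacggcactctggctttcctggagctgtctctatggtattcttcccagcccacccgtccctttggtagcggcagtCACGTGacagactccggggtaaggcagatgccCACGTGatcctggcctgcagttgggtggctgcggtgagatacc
FNIP1 holds 2 copies of the core, and the windows of RICTOR and MIOS hold none of the motifs. A match describes these letters only.

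Other genes of the mTOR pathway were taken from lists by role. Of 56 genes, 51 were tested, 22 were higher and 11 lower, against 19.4% and 19.7% of all genes tested. Their median log2 fold change was 0.09, and that of all genes -0.0022. The lists below hold 2 to 15 tested genes each, and their counts are to be read against the same 19.4% and 19.7%. With total counts alone 13 of the 51 were higher and 13 lower, and with the GC trend removed 15 were higher and 8 lower. Without AICAR replicate 2 the lower calls numbered 7.

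The largest difference was that of DDIT4, a stress-induced inhibitor of complex 1 also known as REDD1. It had 98.9 and 103 CPM with vehicle and 28.6 and 30.5 CPM with AICAR, a 3.41-fold fall (log2 fold change -1.77 ± 0.0482, SE; adjusted p = 7.40e-10). Its relative DDIT4L fell by 0.33 on the log2 scale. TELO2, a chaperone of mTOR and related kinases, rose by 0.21, a call lost with total counts alone (0.15) and with the GC trend removed (0.04). Of the 7 genes for mTOR stability and stress inhibition, 2 were higher and 3 lower (19.4% and 19.7% of all genes).

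Among 9 further nutrient sensors and KICSTOR genes, 1 was higher and 3 lower (19.4% and 19.7% of all genes). C7orf60, also known as BMT2 and as the sensor SAMTOR, had 12.2 and 12.8 CPM with vehicle and 7.17 and 7.72 CPM with AICAR. Its log2 fold change was -0.75 ± 0.0895 (SE, adjusted p = 7.61e-05). The KICSTOR subunit C12orf66, now KICS2, fell by 0.46. LARS, the leucyl-tRNA synthetase, rose by 0.13, which did not pass without vehicle replicate 1 (0.11) or AICAR replicate 1 (0.10). In the list named for partners of Rag and Ragulator, 4 genes were tested and 3 were higher, against 19.4% of all genes. These were the ubiquitin ligase gene RNF167 (0.27), SQSTM1 (0.20) and ARF1 (0.18). The list's name is a label and does not say that each product binds Rag or Ragulator. C17orf59, now BORCS6, a lysosomal protein that binds Ragulator, fell from 13.5 and 13.4 to 8.74 and 10.2 CPM (-0.50 ± 0.0917, SE; adjusted p = 0.00128).

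Upstream, 3 of 11 tested kinase and phosphatase genes were higher and 2 lower, shares near the 19.4% and 19.7% of all genes. AKT1 had 88.1 and 81.3 CPM with vehicle and 103 and 108 CPM with AICAR (0.32, adjusted p = 0.000306). PIK3CA fell by 0.25, but was not called without AICAR replicate 2 (-0.13) or with the GC trend removed (-0.03). Of the complex 2 subunits besides RICTOR, PRR5 and MAPKAP1 rose by 0.29 and 0.18 and PRR5L did not pass at under 1 CPM. The call of PRR5 was lost without AICAR replicate 2 (0.23), in DESeq2 and with the GC trend removed (0.14).

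Downstream, 10 of 15 effector genes were higher and 2 lower (19.4% and 19.7% of all genes), with a median log2 fold change of 0.21. LARP1, which represses mRNAs of the translation machinery when complex 1 is inactive, had 139 and 134 CPM with vehicle and 194 and 188 CPM with AICAR (0.48 ± 0.0396, SE; adjusted p = 4.21e-06). The autophagy kinase gene ULK2 fell by 0.57 from a low level of 3.69 to 2.49 CPM, and was not called without vehicle replicate 1 (-0.50) or in DESeq2. Of the MiT/TFE factors, which complex 1 keeps out of the nucleus, TFE3 rose by 0.37 and TFEB did not pass (-0.03, adjusted p = 0.759). The call of TFE3 was lost without vehicle replicate 2 (0.31) or AICAR replicate 2 (0.29) and in DESeq2. AKT1, C7orf60, DDIT4, RNF167, C17orf59 and LARP1 kept their calls under every alternative that gave a value.

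**Figure D5:**
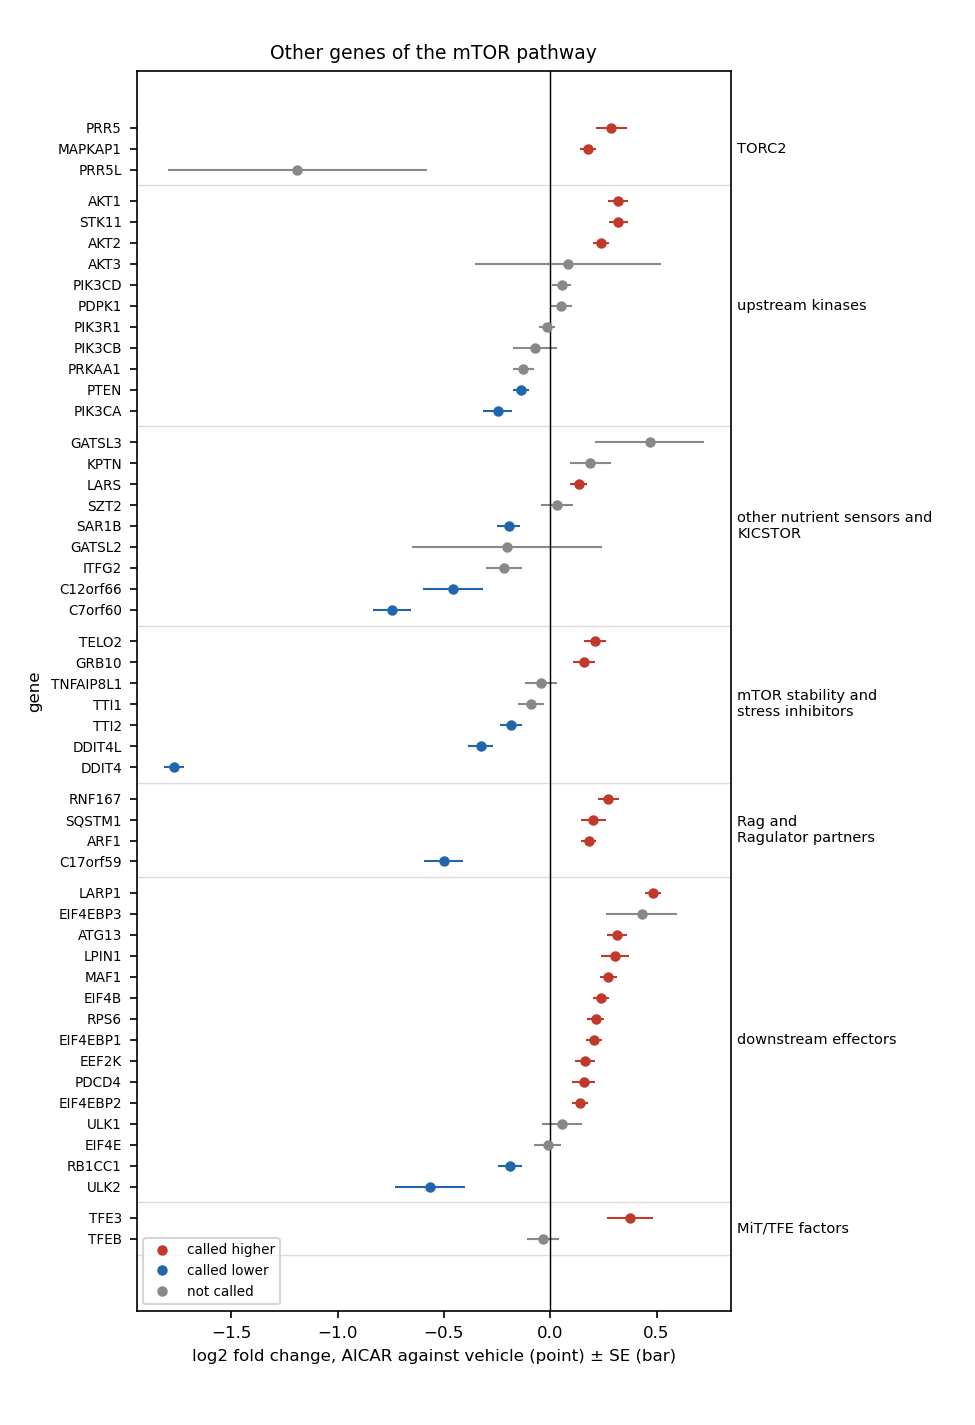
Log2 fold change of the 51 tested genes of the wider mTOR pathway with AICAR against vehicle (points, with the standard error as bars), by list and coloured by call. DDIT4 lies far left of all others that were called, at -1.77, and most downstream effectors lie between 0.14 and 0.48.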

How the data were processed

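RNA of 4 NALM6 libraries was measured, 2 per group. Per the labels' protocols, libraries from a stranded total RNA kit were sequenced as single reads of 75 bases. Per the submitters' processing notes, hg19, RSEM 1.2.31, STAR 2.5.3a, Trimmomatic 0.32 and DESeq2 were used. The sources used here do not give the annotation or the strand setting. Expected counts per gene (not normalized) and FPKM values were deposited, as was the authors' comparison as log2 fold changes with q-values. Of the members, 8 in the authors' deposited table have a q-value under 0.05, 5 higher and 3 lower, all also called here. The remaining members called here do not pass there: NPRL3, LAMTOR2, LAMTOR1, MLST8, FLCN, SLC38A9, RRAGD and NPRL2 have q-values from 0.0947 to 0.276.

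Expected counts were rounded, filtered with filterByExpr (minimum count 10, total 15), scaled by TMM and tested with edgeR 4.0.16 (R 4.3.3; two-sided quasi-likelihood test, no replicate block). Values are TMM-scaled CPM, and the SE of a fold change comes from the test statistic. Effective length is the count over FPKM and depth, and GC content comes from GENCODE 29 transcripts (97.2% of tested protein-coding genes). Trends on either were removed with loess offsets (span 0.5). Limma 3.58.1 and DESeq2 1.42.0 served as alternatives. In GENCODE 29, 26 of 36 members share exon bases with another gene, so their counts may hold reads of both. The procedure was also run on simulated counts that held no trend on GC content or length, so that run cannot show how such trends affect the calls.

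The members, lists and motifs were chosen with earlier results of these data known. The genes given library values were called members with an absolute log2 fold change of at least 0.5 and the largest called rise and fall of each role group or list; values of other members were added after they were seen. Replicate libraries were not duplicates: the chi-square of their counts, divided by the number of genes, was 8.41 between the vehicle pair and 2.93 between the AICAR pair.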

Additional observations from a re-analysis of the deposited data

How the results depend on the processing

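Counts of called members and related genes moved with several choices. Total counts alone gave 4 members higher and 8 lower, 13 related genes higher and 1390 of all genes higher. With no low-count filter 6 members were higher and 3 lower, and among genes averaging at least 10 CPM 7 and 8. DESeq2 called 5 and 3 members and 14 and 6 related genes. At an adjusted p of 0.01, 6 and 3 members, 4 lower related genes and 1727 higher genes remained. With the length trend removed 7 members were higher. With the GC trend removed, an alternative chosen after seeing the data, 5 were higher and 9 lower, MLST8 turned to -0.0071 and SEH1L to 0.15. Leaving out 1 library gave 7 to 9 members higher and 3 to 6 lower, 17 to 20 and 7 to 11 related genes, and 2033 to 2616 and 2335 to 2643 of all genes. The causes were not tested.

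A replicate block gave 10 members higher and 6 lower; RRAGD lost its call and RRAGA gained one. Nothing in the labels pairs the numbers, and deviations of same-numbered libraries had a correlation of -0.0249 over 8228 genes. Across the alternatives 9 members changed sign, of which MLST8 was the called one. The common biological coefficient of variation was 3.63%, from 2 libraries a group.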
